A study of Mus musculus with 35 samples.

Results

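Splicing factor families were examined as 109 genes, out of 23906 gene names carried by both of the merged transcript assemblies, in mouse neural progenitor cells (NPCs) with and without Mettl14. They were chosen by symbol alone: 13 SR protein genes (Srsf, Tra2a and Tra2b), 20 Hnrnp genes, 12 genes of the SF3A and SF3B complexes and U2AF, 12 Snrp genes, 13 Prpf genes, 34 Rbm genes (without Rbm15 and Rbm15b), 3 Luc7l genes, and Sfpq with Nono. The Mettl14 protein is a partner of Mettl3 in the complex that writes N6-methyladenosine (m6A) into mRNA. The cultures were Mettl14 homozygous knockout (KO), heterozygous (Het) or wild type (WT), and came from embryos. RNA-seq covered 3 KO, 3 Het and 3 WT libraries of batch 1, and 2 KO and 2 WT libraries of batch 3, each library from a separately numbered line. The targeting scheme began with an allele carrying loxP sites around an early part of the gene, in mice of mixed G4 embryonic stem cell and c57 origin. The labels describe both a germline deletion made with EIIa-Cre and a nestin-Cre deletion and do not say which gave these lines. The m6A map was made in WT cells only, from 2 immunoprecipitates and 2 inputs, and acetylation and trimethylation of histone H3 at lysine 27 (H3K27ac, H3K27me3) were mapped in 2 KO and 2 WT lines, which carry the line numbers of batch 3.

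Introns are removed by the spliceosome, which is built on each pre-mRNA from small nuclear ribonucleoproteins (snRNPs). The U1 snRNP marks the 5′ splice site, U2AF and the SF3 complexes bring the U2 snRNP to the branch point, and Prpf proteins serve in the later tri-snRNP and catalytic stages. SR proteins bind exons and mostly promote their inclusion, hnRNP proteins often oppose it, and many of both kinds shuttle between nucleus and cytoplasm or control each other's transcripts.

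Depth was 14.1 to 19.7 M fragments per library (M, 1e+06). Levels are given as counts per 1e+06 fragments (CPM) unless FPKM is named. FPKM is the authors' own estimate of fragments per kilobase of transcript per 1e+06 fragments. It is not the CPM used here divided by a length, so the 2 measures can differ in direction. A gene was called when its adjusted p was below 0.05 in edgeR's quasi-likelihood test with Benjamini-Hochberg adjustment over all loci tested, and p-values of genes below come from that test. RNA over the whole Mettl14 locus was 22.6, 20.2 and 22.5 CPM in KO and 22.8, 24.4 and 22.3 CPM in WT libraries of batch 1, and 31 and 23.2 CPM in KO and 38.7 and 36.1 CPM in WT libraries of batch 3. The locus value does not isolate the deleted stretch, so it does not check the genotype labels. The progenitor genes Vim and Nes were abundant, at 1409 and 332 CPM in KO and 3374 and 1166 CPM in WT cells of batch 1 on average. Of 8 progenitor markers 4 fell over batches (Vim, Nes, Fabp7 and Pax6), 2 rose (Sox2 by 1.00 and Msi1 by 1.03 on the log2 scale, adjusted p = 3.6e-07 and 6.9e-05) and Sox1 and Hes5 were not called. The 5 microglial markers together reached at most 1.67 CPM in any KO library and 1.88 CPM in any WT library, the 5 endothelial ones 5.47 and 3.17 CPM, and the 5 fibroblast and pericyte ones 8.39 and 2.85 CPM; of the last, 2 of 3 tested were higher in KO over batches. No listed marker was at 0 in all libraries. The 10 markers of cycling cells were lower in KO over batches in 10 of 10 cases. Their sum was 1096 to 1955 CPM in KO and 3656 to 3804 CPM in WT libraries of batch 1, and 2666 to 2895 CPM in KO and 3988 to 4228 CPM in WT libraries of batch 3. Of 5 astrocyte markers 4 were higher and 1 lower. In batch 1 their sum was 324 to 498 CPM in KO and 269 to 366 CPM in WT libraries. The 7 neuronal markers (1 higher, 2 lower) summed there to 996 to 1219 CPM in KO and 1093 to 1157 in WT. The 5 of the oligodendrocyte lineage (2 higher, 1 lower) summed to 310 to 336 and 458 to 537 CPM. In batch 3 the astrocyte sums were 154 to 261 and 159 to 193 CPM in KO and WT. The neuronal ones were 816 to 996 and 993 to 1117, the oligodendrocyte ones 612 to 645 and 643 to 738. The part of these shifts in the results below was not tested, and in bulk RNA fewer cells of a type and less RNA per cell cannot be told apart.

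Most splicing factor genes had less RNA in KO cells, across both batches. The 109 genes lie on 107 loci in the assemblies, since a few neighbours share 1 locus, and 104 loci passed the filter on low counts; Rbm31y, Rbm44 and Rbm47 were not tested. Of the 104 loci, 15 rose and 65 fell in KO over batches, 76.9% in all, where 63.4% of all 13947 loci tested were called, 32.8% higher and 30.6% lower. The median log2 fold change was -0.34 over the splicing factor loci and 0.03 over all loci. Summed over the 104 loci, RNA came to 18617, 17844 and 18366 CPM in KO, to 23255, 23162 and 23018 CPM in Het and to 23334, 23372 and 23740 CPM in WT libraries of batch 1. In batch 3 the sums were 25017 and 26695 CPM in KO and 31684 and 31955 CPM in WT libraries. Every KO sum lay under every WT sum of its batch, at 77.8% of the WT mean in batch 1 and 81.3% in batch 3. The families differed: 13 of 13 SR loci fell, 15 of 19 Hnrnp loci and 11 of 12 SF3 and U2AF loci fell, whereas 2 of 3 Luc7l loci rose and the Rbm genes divided into 7 that rose, 10 that fell and 13 that were not called.

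**Figure D1:**
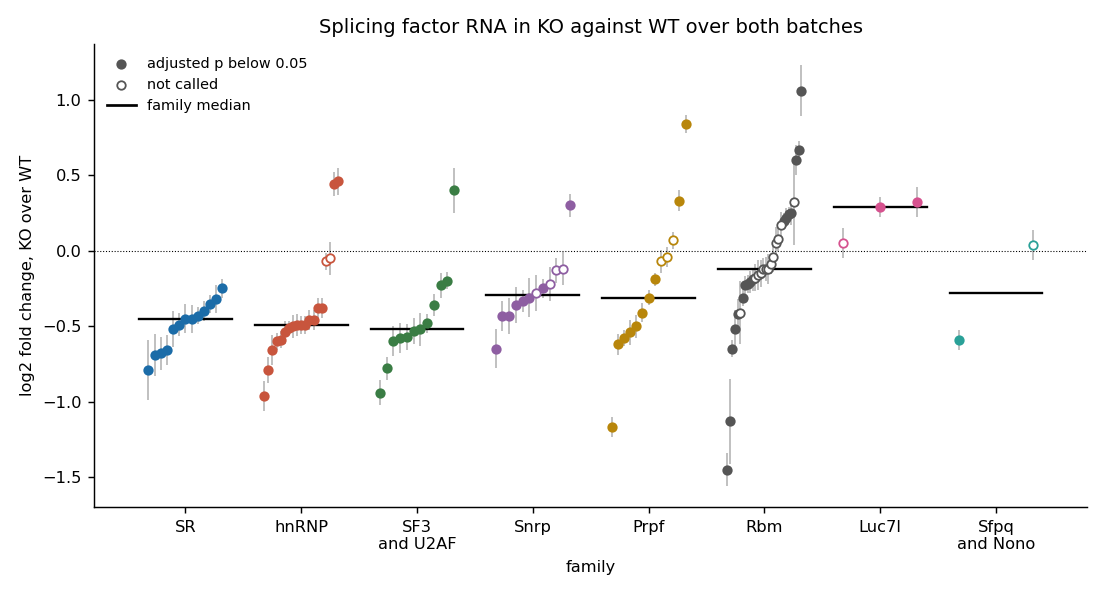
Log2 fold change of KO over WT across both batches (vertical axis) for each splicing factor locus tested, grouped by family (horizontal axis), with bars of 1 standard error; filled points have an adjusted p below 0.05, and black lines are family medians. The SR points all lie below 0, and the Rbm points run from -1.45 to 1.06.

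Each batch was also fitted alone. In batch 1, 16 splicing factor loci rose and 72 fell of 105 tested (83.8%), against 69.3% called among all 13677 loci, 34.3% higher and 35% lower. In batch 3, with 2 libraries a group, 5 rose and 22 fell of 104, which is 26% against 31.7% of all 12836 loci, 17.3% higher and 14.4% lower. The share called in batch 3 was thus below that of all loci, although the share called lower, 21.2%, was above it. That count moved from 5 to 58 when 1 of the 4 libraries was left out: it was 49 and 58 without KO replicate 1 or 2, and 7 and 5 without WT replicate 1 or 2. With limma on log2(FPKM + 1) it was 6. The share of all loci at these settings is not given here. The same holds for member and family counts below at other settings, so none of them can be set against all loci. The batches share no library, and of 105 pairs of a batch 1 and a batch 3 locus (Hnrnpd and Hnrnpdl have a locus each in batch 1 and 1 between them in batch 3), 88 (83.8%) had the same sign, as did 76.4% of all 12357 loci. Both signs were negative for 72 of the 105 (68.6%) and for 38.9% of all loci. The 25 loci called in both batches had the same sign in each.

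**Figure D2:**
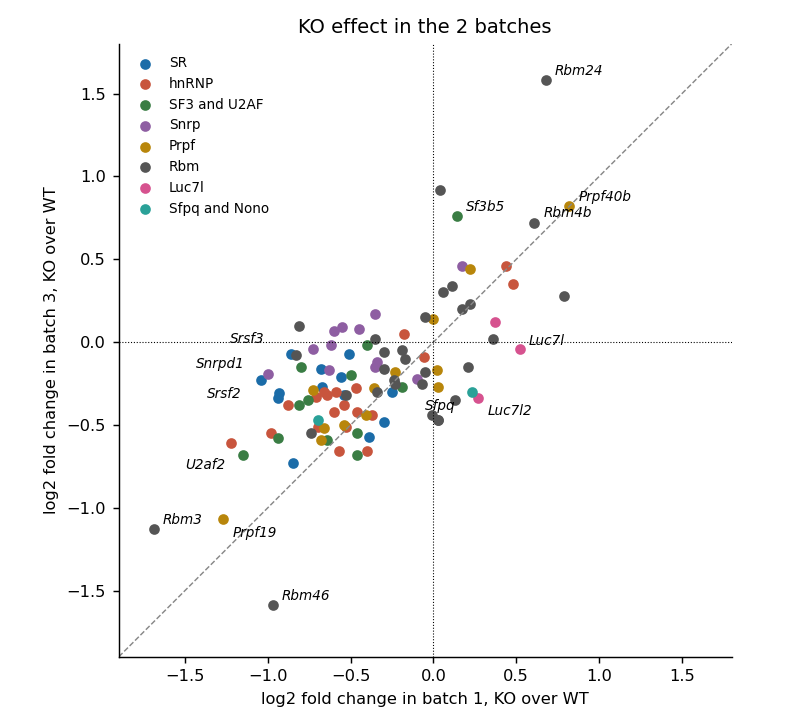
Log2 fold change of KO over WT in batch 3 (vertical axis) against that in batch 1 (horizontal axis) for each splicing factor gene tested in both, coloured by family, with the line of equal effects dashed. Prpf19 and Prpf40b lie near the line, Snrpd1, Srsf2 and Srsf3 lie well above it on the negative side, and Luc7l2 and Sfpq are positive in batch 1 and negative in batch 3.

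The KO effect differed between batches for 29 of the 104 member loci (27.9%), against 19.2% of all loci tested; 10 differences were positive (batch 1 minus batch 3) and 19 negative, where 8.31% and 10.9% of all loci were so called. Of the 19 negative ones, 7 were SR genes (Srsf1, Srsf2, Srsf3, Srsf6, Srsf7, Srsf9 and Tra2b) and 4 were Snrp genes. Leaving out 1 library moved this count between 6 and 53. In batch 3 it was 53 and 13 without KO replicate 1 or 2 and 6 and 13 without WT replicate 1 or 2, and in batch 1 it was 17 and 18 without KO replicate 2 or 3 and 16, 18 and 19 without WT replicate 1, 2 or 3. With limma on FPKM 1 difference was positive and 19 were negative. Batch stands for the sequencing round and the set of lines at once, which cannot be told apart.

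The start sites of nearly all these genes carried H3K27ac in KO and WT lines alike. A deposited H3K27ac peak lay within 1000 bases of a start site for 105 and 106 of the 109 genes in the KO lines and for 106 and 106 in the WT lines, and for 104 in all 4 lines, where 82.6% of genes tested had one. The exceptions were Snrpn and Rbm31y with no peak, Rbm44 with a peak in 1 line, and Rbm46 and Rbm47 with a peak in 3. H3K27me3 was near the start in all 4 lines for 3 genes, Rbm20, Rbm46 and Rbm47, where the share of all genes tested was 9.15%. With a −log10 q of at least 5 that count was 1, and the share of all genes at that setting was not counted. Rbm46, known as a germ cell gene in mice, had the highest H3K27me3 fold enrichment of the 3, at 13.2 and 13.2 in KO lines and 8.19 and 10.4 in WT lines. Nono, Hnrnph2 and Rbm41, all on the X chromosome, had an H3K27me3 peak in KO line 2 and WT line 1 and none in KO line 1 or WT line 2, while Rbm3 and Rbm10, also X-linked, had none in any line. Peak folds here are the authors' values, and a change in a fold between lines was not tested.

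RefSeq promoter windows of build GRCm38.p6, from 250 bases before to 50 after a start, were found for 93 of the 109 genes, as 119 windows. Those of 5 genes with large changes are printed because they show how varied the motif matches in these windows are. They range from windows with the letters TATAAA (Srsf2, Hnrnpab, Sf3b3) to one with several GC boxes and no TATAAA (Prpf40b). Capitals mark matches on either strand to short motifs. The ETS type motif searched was CCGGAAG. The second motif was the CCAAT box, named by its letters. The GC box was searched as the letters GGGCGG. The TATA box was searched as the letters TATAAA anywhere in the window, so a match need not be a working TATA box. The TATAAA lies shortly before the start in Srsf2, farther before the start in Sf3b3, and after the start in Hnrnpab. The other motifs searched, also on both strands, were TGACGTCA (CRE), the YY1 type AAGATGGC, the NRF1 type GCATGCGC and the palindrome TCTCGCGA, none of which is in these 5 windows.
Srsf2: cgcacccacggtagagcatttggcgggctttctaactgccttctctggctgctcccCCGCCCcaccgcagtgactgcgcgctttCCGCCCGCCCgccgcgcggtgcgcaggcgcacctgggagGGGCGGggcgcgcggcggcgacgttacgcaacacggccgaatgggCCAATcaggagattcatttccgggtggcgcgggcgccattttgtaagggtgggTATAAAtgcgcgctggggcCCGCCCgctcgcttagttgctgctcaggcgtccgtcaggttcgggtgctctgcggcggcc
Hnrnpab: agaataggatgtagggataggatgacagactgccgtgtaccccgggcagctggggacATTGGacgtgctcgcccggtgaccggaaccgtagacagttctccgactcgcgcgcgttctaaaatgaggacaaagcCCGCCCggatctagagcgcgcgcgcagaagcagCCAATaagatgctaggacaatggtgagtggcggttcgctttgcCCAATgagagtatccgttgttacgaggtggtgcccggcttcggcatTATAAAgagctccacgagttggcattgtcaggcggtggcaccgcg
Sf3b3: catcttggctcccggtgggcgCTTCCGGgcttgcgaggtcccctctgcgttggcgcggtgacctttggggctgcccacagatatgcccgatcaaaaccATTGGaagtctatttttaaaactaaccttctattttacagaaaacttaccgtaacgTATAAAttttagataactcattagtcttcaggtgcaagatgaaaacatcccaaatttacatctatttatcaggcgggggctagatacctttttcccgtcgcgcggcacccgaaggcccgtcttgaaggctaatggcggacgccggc
Prpf19: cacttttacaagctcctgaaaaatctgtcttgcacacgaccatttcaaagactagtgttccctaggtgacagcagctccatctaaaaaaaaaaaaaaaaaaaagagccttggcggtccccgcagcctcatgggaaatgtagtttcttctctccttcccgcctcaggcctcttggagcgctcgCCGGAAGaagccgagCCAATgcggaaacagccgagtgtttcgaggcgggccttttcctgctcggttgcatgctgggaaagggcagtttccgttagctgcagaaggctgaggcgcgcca
Prpf40b: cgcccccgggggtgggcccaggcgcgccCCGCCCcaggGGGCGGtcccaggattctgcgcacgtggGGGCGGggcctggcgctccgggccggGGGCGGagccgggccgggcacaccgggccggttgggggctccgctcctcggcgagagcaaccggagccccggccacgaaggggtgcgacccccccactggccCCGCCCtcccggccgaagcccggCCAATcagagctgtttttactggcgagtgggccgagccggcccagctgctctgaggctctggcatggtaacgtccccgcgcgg
The windows lie at chr11:116853045-116853344 (minus strand, Srsf2), chr11:51606832-51607131 (minus, Hnrnpab), chr8:110846754-110847053 (minus, Sf3b3), chr19:10894981-10895280 (plus, Prpf19) and chr15:99294991-99295290 (plus, Prpf40b). Prpf19 and Prpf40b have 2 windows each, and the one with more of the searched motifs was printed. The other Prpf40b window has no GC box, and the other Prpf19 window has no CCGGAAG. Each of the 5 printed windows overlapped an H3K27ac peak in both KO and both WT lines. The Prpf19 window had fold enrichments of 7.78 and 11.1 in KO lines and 9.09 and 11.2 in WT lines, and the Prpf40b window had 5.04 and 5.54 in KO lines and 4.93 and 5.9 in WT lines. These 2 genes fell and rose in KO, as given below, with folds that overlapped between genotypes at both.

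CCGGAAG was found in 30 of the 119 member windows (25.2%), against 15.7% of windows of genes tested and 8.86% of all 32851 windows. It was in 22 of 75 windows of genes that fell and in 1 of 14 windows of genes that rose, and in 7 of 26 windows of genes not called. CCAAT was in 46.2% of member windows against 37.7% of windows of genes tested and 37.4% of all. The GC box was in 56.3%, 61.1% and 35.7% of them in that order, and TATAAA in 10.9%, 7.2% and 13.6%. The CRE was in 2.52%, 2.99% and 1.79%, the YY1 type in 4.2%, 4.03% and 2.75%, the NRF1 type in 4.2%, 4.88% and 2.71%, and the palindrome in 5.88%, 1.92% and 0.995%. These are matches of letters, some windows belong to the same gene, and no test was made.

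RNA of the SR family was lower in KO over batches. All 13 SR loci fell over batches, where 30.6% of all loci did, with log2 fold changes from -0.79 to -0.25 and a median of -0.45. Their summed RNA was 2547, 2392 and 2495 CPM in KO and 3734, 3673 and 3747 CPM in WT libraries of batch 1, and 3688 and 4166 CPM in KO and 4703 and 4619 CPM in WT libraries of batch 3. The 13 fell in batch 1 (median -0.67), where 35% of all loci did. In batch 3, 2 fell (Srsf4 and Srsf11), and there the median was -0.30 and all 13 values were negative. That is 15.4%, near the 14.4% of all loci called lower in batch 3, and the count was 9 without KO replicate 2, 3 without KO replicate 1, 0 without WT replicate 1 or 2 and 0 with limma on FPKM. In batch 3, KO and WT overlapped in CPM for Srsf2, Srsf3 and Tra2a.

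Srsf2, also called SC35, binds exonic enhancers. It had 151, 135 and 132 CPM in KO and 299, 261 and 280 CPM in WT libraries of batch 1, but 294 and 432 CPM in KO and 412 and 441 CPM in WT libraries of batch 3. The groups were apart in batch 1 and overlapped in batch 3, where 1 KO library reached the WT range. Its log2 fold change was -1.04 in batch 1 and -0.23 in batch 3 (adjusted p = 9.8e-07 for batch 1 and 0.4 for batch 3), and the difference of -0.77 was called (adjusted p = 0.017). Srsf3, the smallest SR protein, which is known to promote nuclear export of mRNA, had 328, 286 and 305 CPM in KO and 544, 540 and 543 CPM in WT libraries of batch 1, and 521 and 643 CPM in KO and 640 and 586 CPM in WT libraries of batch 3. Here too the groups were apart in batch 1 and overlapped in batch 3, at -0.86 and -0.07, with a difference of -0.75 (adjusted p = 0.0041). Srsf5 had the highest level per length of the family in WT cells of batch 1, at 318 ± 31 FPKM, with 255 ± 26 FPKM in KO cells (SD, n = 3 each), and the smallest fall, at -0.25 ± 0.061 over batches (SE, adjusted p = 0.0031). Srsf12, scarce in these cells, had 1.75, 2.47 and 2.26 CPM in KO and 3.62, 4.25 and 3.57 CPM in WT libraries of batch 1, and 2.03 and 1.93 CPM in KO and 4.47 and 2.13 CPM in WT libraries of batch 3. It had the largest fall of the family, -0.79 ± 0.2 (adjusted p = 0.0036). The groups did not overlap in either batch, although in batch 3 the nearest KO and WT values were 2.03 and 2.13 CPM.

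**Figure D3:**
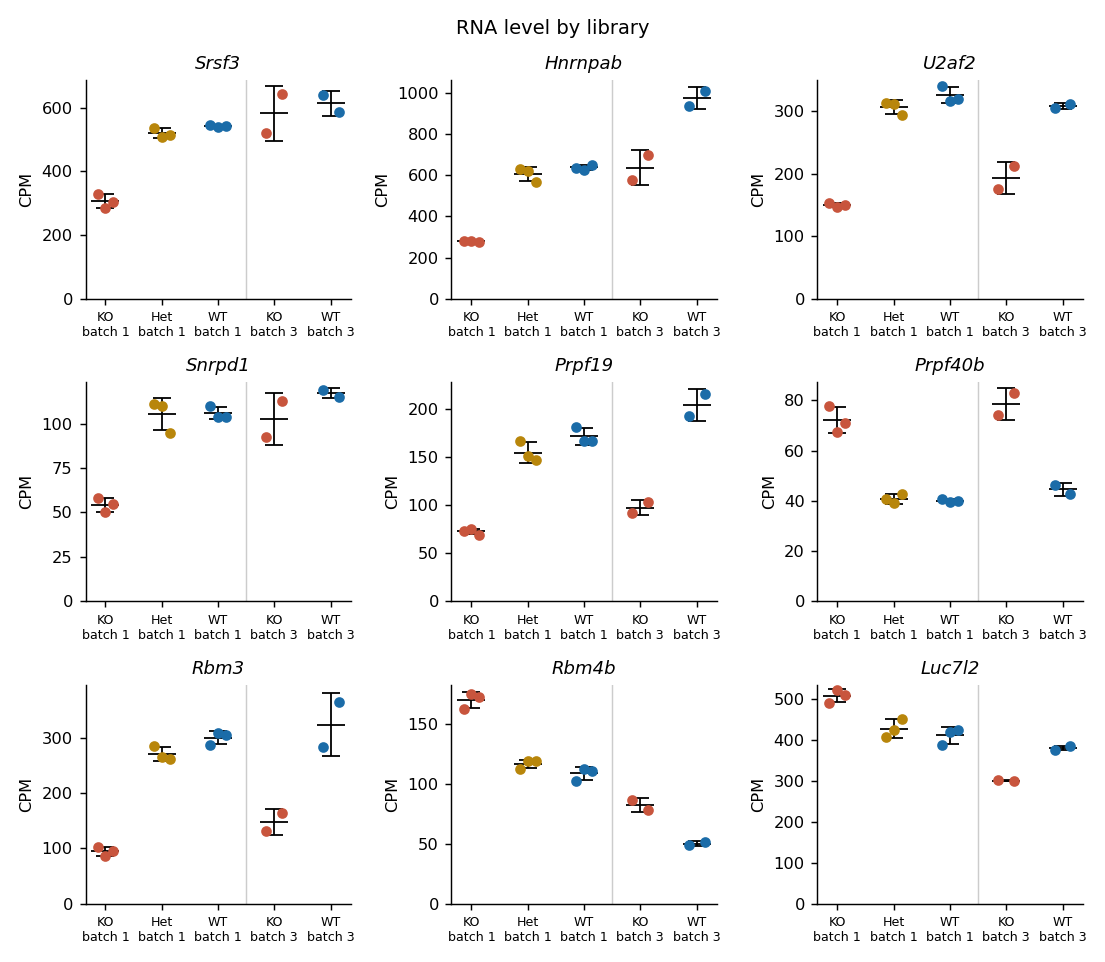
RNA level in CPM (vertical axis, from 0) of 9 splicing factor genes in each library of the 5 groups; points are libraries, and bars are the mean and SD of 3 (batch 1) or 2 (batch 3) libraries. Prpf19, U2af2 and Rbm3 are lower in every KO library than in any WT library of the batch, Prpf40b and Rbm4b are higher, and Luc7l2 is higher in batch 1 and lower in batch 3.

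Against 30.6% of all loci called lower over batches, Hnrnp genes fell in 15 of 19 loci, with a median of -0.49, and 2 rose. Their summed RNA was 6053, 5736 and 5845 CPM in KO and 8797, 8673 and 8782 CPM in WT libraries of batch 1, and 11652 and 12489 CPM in KO and 15381 and 15785 CPM in WT libraries of batch 3. In batch 3 alone 7 fell, where 14.4% of all loci did. That count was 10 and 15 without KO replicate 1 or 2, 0 without WT replicate 1 or 2, and 1 with limma on FPKM. Hnrnpab, which encodes an AU-rich element binding protein, had 283, 281 and 275 CPM in KO and 638, 628 and 649 CPM in WT libraries of batch 1, and 577 and 697 CPM in KO and 939 and 1012 CPM in WT libraries of batch 3. No KO library reached a WT library of its batch. It had the largest fall of the family, -0.96 ± 0.1 (adjusted p = 3.8e-06), and fell less in batch 3 (-1.22 and -0.61, difference -0.58, adjusted p = 0.011). Hnrnpa3, a relative of Hnrnpa1 and Hnrnpa2b1, had 334, 275 and 288 CPM in KO and 574, 565 and 593 CPM in WT libraries of batch 1, and 1655 and 1761 CPM in KO and 2531 and 2476 CPM in WT libraries of batch 3. It fell by 0.79 on the log2 scale (SE 0.087, adjusted p = 4.7e-06) with no overlap, and its locus is shared with the predicted gene Gm6793, so reads of the 2 cannot be told apart. Hnrnpk, a poly(C)-binding protein, was the most abundant per length in WT cells of batch 1, at 536 ± 20 FPKM against 333 ± 11 FPKM in KO cells (SD, n = 3 each), and fell by 0.49 on the log2 scale over batches (adjusted p = 6.2e-05).

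The 2 Hnrnp genes that rose are small relatives. Hnrnpa0, an intronless gene of the A/B group, had 236, 284 and 229 CPM in KO and 202, 177 and 163 CPM in WT libraries of batch 1, and 571 and 650 CPM in KO and 430 and 461 CPM in WT libraries of batch 3. Hnrnph3 of the H/F group had 44.7, 53.9 and 45.3 CPM in KO and 35.5, 35.3 and 30.2 CPM in WT libraries of batch 1, and 74 and 85 CPM in KO and 62.5 and 62.8 CPM in WT libraries of batch 3. In both genes every KO library was above every WT library of its batch. The log2 fold changes over batches were 0.46 ± 0.088 for Hnrnpa0 and 0.44 ± 0.079 for Hnrnph3 (SE, adjusted p = 0.00048 and 0.00028). The relatives of Hnrnph3 went the other way: Hnrnph1 fell by 0.59, Hnrnph2 by 0.51 and Hnrnpf by 0.66 on the log2 scale (adjusted p = 1.4e-06, 9e-07 and 7.9e-05). Hnrnpc (-0.05) and Hnrnpr (-0.07) were not called over batches.

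The genes that define the 3′ splice site and branch point fell nearly throughout. Of 12 SF3 and U2AF loci, 11 fell over batches, with a median of -0.52, and 5 fell in batch 3 alone. Of all loci, 30.6% were called lower over batches and 14.4% in batch 3. The batch 3 count was 6 and 8 without KO replicate 1 or 2, 2 and 0 without WT replicate 1 or 2, and 0 with limma on FPKM. U2af2, the U2AF subunit that binds the polypyrimidine tract, had 153, 147 and 150 CPM in KO and 341, 317 and 320 CPM in WT libraries of batch 1, and 175 and 212 CPM in KO and 305 and 312 CPM in WT libraries of batch 3. The groups were far apart in both batches, and the fall over batches was -0.94 ± 0.085 (SE, adjusted p = 9.1e-07). The batch 1 assembly joins U2af2 with Ccdc106, so these CPM and the value over batches include Ccdc106 counts in both batches. The partner of U2af2, U2af1, which reads the AG at the intron end, fell by 0.57 on the log2 scale (adjusted p = 6.5e-05). Sf3b3, a scaffold subunit of SF3B, had 146, 137 and 132 CPM in KO and 256, 259 and 266 CPM in WT libraries of batch 1, and 182 and 192 CPM in KO and 267 and 292 CPM in WT libraries of batch 3. It fell by 0.78 on the log2 scale (SE 0.076, adjusted p = 1.8e-06) with no overlap. Sf3b1, the branch point clamp often mutated in human leukaemias, fell least of the 11, by 0.20 (adjusted p = 0.0067).

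Sf3b5, the smallest SF3B subunit and the highest in FPKM of this family in WT cells of batch 1, was the exception. It had 70.7, 58.3 and 59.9 CPM in KO and 56.5, 54.8 and 56.6 CPM in WT libraries of batch 1, and 49 and 74.6 CPM in KO and 38 and 35.1 CPM in WT libraries of batch 3. In CPM the KO libraries were above the WT libraries in each batch, whereas in FPKM the groups overlapped in both and batch 1 had the other sign (159 ± 22 in KO and 184 ± 16 in WT cells, SD, n = 3 each; limma -0.22, adjusted p = 0.09). The rise over batches was 0.40 ± 0.15 (SE, adjusted p = 0.027). It was no longer called with limma on FPKM (0.14, adjusted p = 0.58), nor when any of 4 single libraries was left out, KO replicate 1 of batch 1 (adjusted p = 0.056) and, in batch 3, KO replicate 2 (0.1), WT replicate 1 (0.075) or WT replicate 2 (0.12).

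Snrp genes, which encode proteins of the snRNPs including the Sm ring, fell in batch 1 and not detectably in batch 3. In batch 1, 10 of 12 loci fell and 1 rose. Among all loci 35% were called lower and 34.3% higher in batch 1, and 31.7% were called in batch 3. In batch 3, no locus was called by edgeR (1 at an unadjusted p below 0.05), DESeq2 or limma, with a median of -0.03, and the 2 KO libraries differed: the summed Snrp RNA was 932 and 1207 CPM in KO libraries against 1089 and 1069 CPM in WT libraries. Without KO replicate 1 of batch 3, 5 Snrp loci were higher, and without KO replicate 2, 4 were lower. Snrpd1, which encodes the Sm protein D1, had 58.1, 50.1 and 54.8 CPM in KO and 110, 104 and 104 CPM in WT libraries of batch 1, and 92.4 and 113 CPM in KO and 119 and 115 CPM in WT libraries of batch 3. Its groups were wide apart in batch 1 and nearly touched in batch 3, with a log2 fold change of -0.19 in batch 3 and a difference of -0.77 from batch 1 (batch 1 minus batch 3) (adjusted p = 0.004). Snrpe, another Sm protein, changed by -0.73 in batch 1 and -0.04 in batch 3 on the log2 scale (difference -0.65, adjusted p = 0.023). Snrpg had the highest FPKM of the family in WT cells of batch 1, 561 ± 27 FPKM against 424 ± 13 FPKM in KO cells (SD, n = 3 each), and was not called over batches (-0.12, adjusted p = 0.35); without KO replicate 2 of batch 3 it was (-0.30, adjusted p = 0.00058). Snrpe and Snrpg are short genes with retrocopies, which the counting could mix. Snrpb2, the U2 protein B′′, rose by 0.30 ± 0.078 over batches (SE, adjusted p = 0.0043). It had 73.9, 64.5 and 70.3 CPM in KO and 59.6, 62.4 and 59.9 CPM in WT libraries of batch 1, and 92.4 and 120 CPM in KO and 77.9 and 76.9 CPM in WT libraries of batch 3.

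Prpf genes, named for yeast pre-mRNA processing factors, included the steepest fall outside the Rbm genes. Of 13 loci, 8 fell and 2 rose over batches (median -0.31), and 4 fell and 2 rose in batch 3 alone. Among all loci 30.6% were called lower and 32.8% higher over batches, and 14.4% and 17.3% in batch 3. In batch 3, 7 and 5 fell without KO replicate 1 or 2, 1 fell and 1 rose without either WT replicate, and 1 fell and 1 rose with limma on FPKM. Prpf19, the ubiquitin ligase at the heart of the Prp19 complex, had 73.6, 75.3 and 69.4 CPM in KO and 182, 167 and 167 CPM in WT libraries of batch 1, and 91.8 and 103 CPM in KO and 193 and 216 CPM in WT libraries of batch 3. The 2 batches gave like falls, -1.27 and -1.07, with a value of -1.17 ± 0.066 over both (SE, adjusted p = 2.3e-08). Prpf38a, needed for activation of the spliceosome, had 52.3, 46.1 and 49.3 CPM in KO and 74.2, 81.5 and 75.3 CPM in WT libraries of batch 1, and 36.2 and 45.1 CPM in KO and 63.1 and 59.3 CPM in WT libraries of batch 3. It fell by 0.62 on the log2 scale (SE 0.07, adjusted p = 5.7e-06). Prpf8, the core of the U5 snRNP and the highest of the family in FPKM, at 34.9 ± 1.3 in KO and 50.9 ± 1.3 in WT cells of batch 1 (SD, n = 3 each), fell by 0.41 (adjusted p = 0.00012).

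The 2 Prpf genes that rose were Prpf40b and Prpf4. Prpf40b, related to the yeast U1 snRNP protein Prp40, had 77.6, 67.5 and 71.1 CPM in KO and 40.6, 39.5 and 39.9 CPM in WT libraries of batch 1, and 74.2 and 83.1 CPM in KO and 46.3 and 42.8 CPM in WT libraries of batch 3. The Het libraries, at 40.6, 39 and 42.8 CPM, lay with WT. Every KO value was above every WT value, and the rise was 0.84 ± 0.062 over batches (SE, adjusted p = 1.9e-07), at 0.82 in each. Prpf4, of the U4/U6 snRNP, rose by 0.33 ± 0.07 (SE, adjusted p = 0.0011), with 72.4, 60.9 and 63.3 CPM in KO and 57.1, 51.9 and 56.2 CPM in WT libraries of batch 1, and 83.1 and 88.1 CPM in KO and 63.7 and 62.6 CPM in WT libraries of batch 3.

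**Figure D4:**
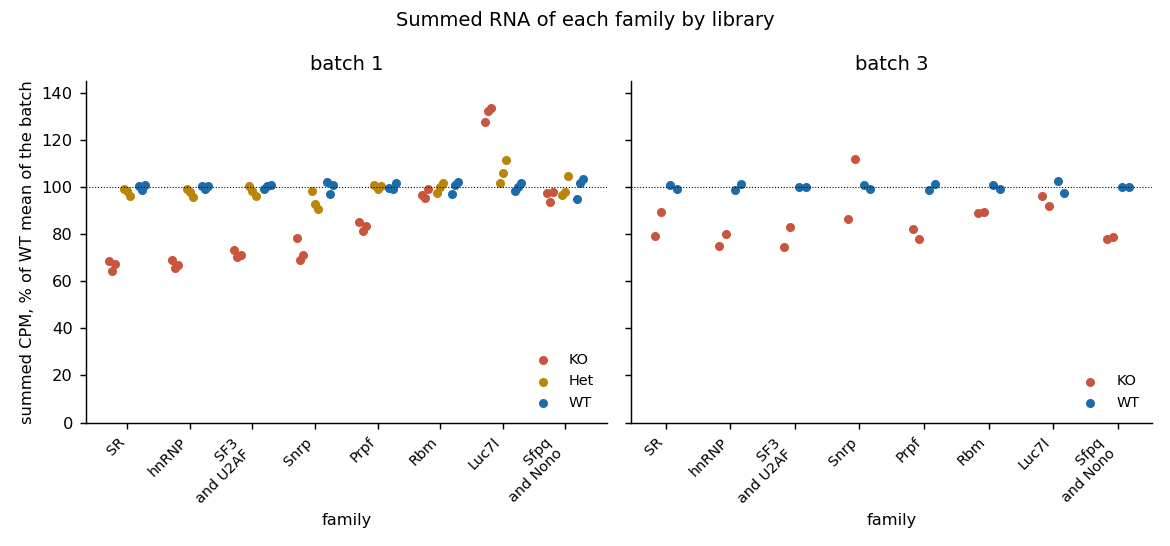
Summed CPM of each family in every library, as a percentage of the mean of the WT libraries of its batch (vertical axis), for batch 1 (left) and batch 3 (right); each point is a library. In batch 1 the KO sums of the SR, Hnrnp, SF3 and U2AF and Snrp families average 66.7%, 67.2%, 71.5% and 72.7% of WT and the Luc7l sum 131%, while in batch 3 the 2 KO libraries stand on either side of WT for Snrp.

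Rbm genes are grouped by a shared RNA-recognition motif name and not by 1 function, and they had no common direction. Of 30 loci tested, 7 rose (23.3%), 10 fell (33.3%) and 13 were not called over batches, with a median of -0.12. Among all loci 32.8% were called higher and 30.6% lower, so the share that fell was near that of all loci. The summed RNA stood at 97.1% of the WT mean in batch 1 and 89.4% in batch 3. Rbm3, a cold-induced RNA-binding protein, had 102, 86.9 and 94.6 CPM in KO, 284, 265 and 262 CPM in Het and 286, 308 and 305 CPM in WT libraries of batch 1, and 131 and 164 CPM in KO and 283 and 364 CPM in WT libraries of batch 3. KO was clear of WT in both batches. It fell by 1.45 on the log2 scale (SE 0.11, adjusted p = 2.4e-07), the largest fall of all members, and it was also the highest of the family in FPKM in WT cells of batch 1 (57.4 ± 3.8 in KO and 231 ± 16 in WT, SD, n = 3 each). Rbm10, a regulator of exon skipping, fell by 0.65 (adjusted p = 6.7e-07). Rbm46 was near the detection limit, at 0.9, 1.49 and 0.849 CPM in KO and 1.9, 2.06 and 2.28 CPM in WT libraries of batch 1, and at 0.475 and 0.293 CPM in KO and 1.15 and 1.17 CPM in WT libraries of batch 3. It fell by 1.13 (SE 0.28, adjusted p = 0.0032).

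Rbm24, a splicing regulator known from muscle, had the largest rise of all members. It had 18.3, 16.6 and 21.2 CPM in KO and 10, 11.4 and 12.8 CPM in WT libraries of batch 1, and 31.5 and 25.6 CPM in KO and 9.64 and 9.5 CPM in WT libraries of batch 3. The rise was 1.06 ± 0.17 over batches (SE, adjusted p = 0.00015), larger in batch 3 (0.68 and 1.58, difference -0.87, adjusted p = 0.033). Rbm4b had 163, 175 and 173 CPM in KO and 103, 113 and 111 CPM in WT libraries of batch 1, and 87 and 78.2 CPM in KO and 48.7 and 52 CPM in WT libraries of batch 3, and rose by 0.67 ± 0.054 (SE, adjusted p = 3.7e-07). In both genes KO and WT were apart in each batch. The neighbours and relatives Rbm4 and Rbm14, which the assemblies join into 1 locus, had 249, 258 and 265 CPM in KO and 241, 243 and 257 CPM in WT libraries of batch 1, overlapping, and 74.9 and 76.7 CPM in KO and 102 and 108 CPM in WT libraries of batch 3, apart. The effect of 0.03 in batch 1 and -0.47 in batch 3 differed by 0.53 (adjusted p = 0.0046); with limma on FPKM the batch 1 value was -0.20 and the difference was not called (0.30, adjusted p = 0.16).

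Luc7l genes, whose yeast counterpart helps U1 hold the 5′ splice site, rose in batch 1, all 3 of them with edgeR. There 34.3% of all loci were called higher. Luc7l had 265, 263 and 272 CPM in KO and 181, 182 and 183 CPM in WT libraries of batch 1, and 210 and 185 CPM in KO and 218 and 187 CPM in WT libraries of batch 3, where the groups overlapped. Luc7l2 had 492, 524 and 510 CPM in KO and 389, 421 and 425 CPM in WT libraries of batch 1, but 302 and 300 CPM in KO and 377 and 385 CPM in WT libraries of batch 3. For Luc7l2, KO was thus above WT in CPM in batch 1 and below it in batch 3. In FPKM the groups of batch 1 overlapped for Luc7l2, at 50.6 ± 5.3 in KO and 49.2 ± 3.3 in WT cells (SD, n = 3 each), and limma did not call it there (0.04, adjusted p = 0.74). The effects differed between batches by 0.59 for Luc7l and 0.65 for Luc7l2 (adjusted p = 0.0052 and 0.0029); with limma on FPKM neither was called (0.31 for Luc7l and 0.40 for Luc7l2, adjusted p = 0.11 for each). Luc7l3, the highest of the 3 in FPKM in WT cells of batch 1, had 349, 358 and 375 CPM in KO and 280, 264 and 273 CPM in WT libraries of batch 1, and 387 and 376 CPM in KO and 364 and 342 CPM in WT libraries of batch 3. It rose over batches by 0.29 ± 0.065 (SE, adjusted p = 0.0016), and Luc7l by 0.32 ± 0.099 (adjusted p = 0.013); without WT replicate 1 of batch 1 the p for Luc7l was 0.06, and with limma on FPKM that for Luc7l3 was 0.051. In batch 3 edgeR, DESeq2 and limma called none of the 3 (1 at an unadjusted p below 0.05 with edgeR).

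Sfpq and Nono encode partner proteins of paraspeckles. In CPM their RNA went in opposite directions in batch 1, and both were lower in KO in batch 3. Nono had 363, 329 and 345 CPM in KO and 567, 533 and 552 CPM in WT libraries of batch 1, and 388 and 428 CPM in KO and 536 and 597 CPM in WT libraries of batch 3, with no overlap. It fell by 0.59 (SE 0.067, adjusted p = 6.1e-06). Sfpq had 948, 929 and 969 CPM in KO and 705, 833 and 839 CPM in WT libraries of batch 1, and 1018 and 991 CPM in KO and 1263 and 1210 CPM in WT libraries of batch 3. It was thus higher in KO in batch 1 (0.23, adjusted p = 0.018) and lower in batch 3 (-0.30, adjusted p = 0.18), a difference of 0.56 (adjusted p = 0.016), but limma on FPKM put batch 1 at -0.17 (adjusted p = 0.086). Over batches the value was 0.04 (adjusted p = 0.78) with edgeR and -0.23 (adjusted p = 0.04) with limma on FPKM.

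Loss of 1 Mettl14 copy moved these genes little. Of 105 member loci none was called in Het against WT with edgeR, DESeq2 or limma, 14 had an unadjusted p below 0.05 with edgeR, and the log2 fold changes lay between -0.46 and 0.25 with a median of -0.04. Among all 13677 loci, 1175 had an unadjusted p below 0.05 with edgeR and 2 (0.0146%) were called. Prpf19 had 167, 151 and 147 CPM in Het and 182, 167 and 167 CPM in WT libraries (log2 fold change -0.16 ± 0.064, SE, adjusted p = 0.56), which touch at 167. The Het and KO comparisons use the same WT libraries of batch 1.

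In WT cells, 40 of the 109 genes had an m6A region over an exon in all 4 deposited peak lists, 36.7%, where 40.5% of all genes tested had one. The 4 lists pair the 2 immunoprecipitates with the 2 inputs, so they are not 4 independent samples. At least 1 list held a region for 85 genes, and with a −log10 q of at least 5 the count in all 4 lists was 4. The share of all genes was not counted at these 2 settings, so the counts cannot be set against it. Rbm41 had the highest mean fold enrichment, 7.65 (6.24, 7.05, 9.5 and 7.79 in the 4 lists), at chrX:139995176-139995264 (mm10, minus strand) in exon 3 of 8. Rbm20, a regulator of titin splicing, was next at 7.51 (7.68, 6.55, 7.38 and 8.44) and had 5 regions, the highest being one in exon 11 of 14 (chr19:53851187-53851814, plus strand) and one in exon 2 (chr19:53813483-53814011). Rbm34, at 5.87, Rbm19, a ribosome biogenesis factor, at 5.16, Rbm48, a factor of minor intron splicing, at 4.67, and Rbm33, at 4.66 with 4 regions, followed. Their RNA in KO went in several directions: Rbm33 rose by 0.60 and Rbm19 fell by 0.52 over batches (adjusted p = 0.00014 and 0.0028), whereas Rbm20 (0.05), Rbm34 (0.17), Rbm41 (-0.12) and Rbm48 (-0.04) were not called. Limma on FPKM put Rbm48 at 0.24 (adjusted p = 0.019). Rbm33 had 151, 149 and 155 CPM in KO and 80.2, 88.5 and 89.7 CPM in WT libraries of batch 1, and 219 and 178 CPM in KO and 173 and 154 CPM in WT libraries of batch 3. Rbm19 had 27.7, 25.5 and 24.2 CPM in KO and 45.8, 43.1 and 46.1 CPM in WT libraries of batch 1, and 33.2 and 34.9 CPM in KO and 33.9 and 38.3 CPM in WT libraries of batch 3, overlapping.

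The places of the regions are given beside those of all genes, with no test. Of 53 member regions found in all 4 lists, placed by their centre in the longest transcript, 14 (26.4%) were in a last exon, 16 (30.2%) in an internal exon and 12 (22.6%) in a first exon. Over 8498 regions of all genes tested the shares were 50.5%, 26.7% and 12.2%. A further 3 member regions (5.66%) were in genes of 1 exon and 8 (15.1%) fell outside the longest transcript, against 4.22% and 6.35% of all. Some member regions overlap exons of a second gene. U2af2 had a last-exon region (chr7:5079538-5079854, fold 2.91), as did Sf3b3 (chr8:110810759-110810894, fold 3.6). Prpf19 had one in its first exon (chr19:10895288-10895498, fold 3.35), and Rbm4b had 2 internal ones with folds of 3.25 and 4.58.

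**Figure D5:**
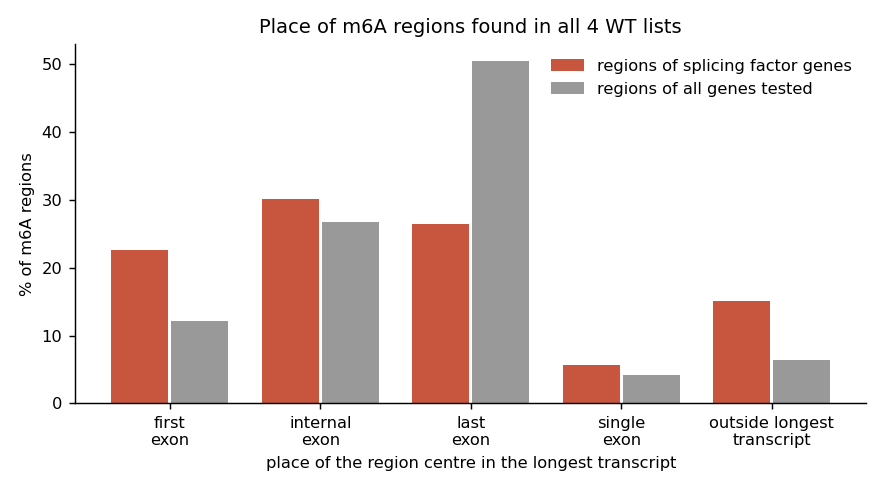
Share of m6A regions in percent (vertical axis) by the place of the region centre in the longest transcript (horizontal axis), for 53 regions of splicing factor genes (red) and 8498 regions of all genes tested (grey). Last exons hold 26.4% of the regions of splicing factor genes and 50.5% of all.

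Falls in KO were seen with and without m6A in WT. Of 39 member loci with a region in all 4 lists, 7 rose and 21 fell over batches (median -0.21); of 45 with a region in 1 to 3 lists, 5 rose and 31 fell (median -0.36); of 21 with none, 3 rose and 14 fell (median -0.41). The locus that Hnrnpd and Hnrnpdl share over batches, which fell, is counted in both of the first classes. Among all genes tested the medians of the 3 classes were 0.14, -0.11 and 0.00. Of all genes, 42.4% were higher and 26.3% lower in the first class, 24.4% and 39.7% in the second, and 28% and 29.2% in the third. No test of the classes was made.

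Splicing genes outside these families are given for comparison. Of 74 further genes of the spliceosome and its assembly, 7 rose and 42 fell over batches (median -0.27), and of 52 tested regulators of splicing 8 rose and 28 fell (median -0.24), where 32.8% of all loci were called higher and 30.6% lower. In batch 3 alone 5 of the 74 and 18 of 49 fell, where 14.4% of all loci were called lower. The largest falls among the first were Snrnp40 of the U5 snRNP (-0.79 ± 0.11), Lsm8 of the U6 snRNP (-0.75 ± 0.15) and Prmt5, which methylates Sm proteins (-0.73 ± 0.095; SE, adjusted p = 5.2e-05, 0.00059 and 2.1e-05). The largest rises were Gemin4 (0.55, a locus shared with Glod4), Gemin8 (0.52) and Gemin7 (0.44, shared with Ppp1r37), which belong to the SMN complex that loads Sm rings (adjusted p = 0.00032, 3.2e-05 and 0.00012). Other genes of that complex went the other way: Gemin2 fell by 0.52, Gemin5 by 0.45 and Smn1 by 0.33 on the log2 scale (adjusted p = 0.0049, 0.00046 and 0.0094), and Gemin6 (0.47) and Ddx20 (-0.27) were not called. Gemin8 averaged 42.7 ± 4.1 CPM in KO and 30.3 ± 1.2 CPM in WT cells of batch 1 (SD, n = 3 each). Among regulators, the neuronal RNA-binding gene Elavl2 fell by 1.33 (adjusted p = 4e-05), with 7.65 ± 2.3 CPM in KO and 16.6 ± 1.2 CPM in WT cells of batch 1, and the low-level genes Mbnl3 and Celf5 fell too (adjusted p = 0.036 and 0.00038). Ythdc1, the nuclear m6A reader, rose by 0.66 ± 0.056 (SE, adjusted p = 5.8e-07), with 203 ± 11 CPM in KO and 132 ± 5.4 CPM in WT cells of batch 1 and 236 ± 16 and 144 ± 1.7 CPM in batch 3 (SD, n = 3 and 2 each). Srrm3 and Rbfox1, both known from neurons, also rose (adjusted p = 0.0021 and 0.04), at no more than 1.94 CPM on average in any group.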

How the data were processed

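RNA-seq, m6A and histone tables were used as the authors deposited them. Expected counts (fragments per locus, not scaled) and FPKM values came from the authors' Cuffdiff tables, per the file headers; TopHat2 2.1.0, TopHat, Cufflinks and Cuffdiff on mm10 are named in the submitters' processing notes, with no roles. Peak lists, with Bowtie2 2.3.1 and MACS2 in the same notes, hold a fold ratio, a score and −log10 p and q values by the authors, per the file headers. Exon positions came from the deposited merged assemblies.

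The counts, of which 5.31% (batch 1) and 2.31% (batch 3) were not whole within 1e-9, were rounded. Loci without a gene name held 1.03% to 2.16% of fragments in batch 1 and 0.352% to 0.559% in batch 3 and were left out, as were 2 and 1 loci marked HIDATA. Depth was 14.1 to 19.7 M (1e+06) fragments per library, so low genes carry the widest errors. Tests used edgeR 4.0.16 in R 4.3.3 (quasi-likelihood, robust, TMM, filterByExpr) over all loci with Benjamini-Hochberg adjustment and a threshold of 0.05: KO against WT with batch as a term, in each batch, the difference between batches, and Het against WT. The code was tested on simulated data. Alternatives were RLE scaling, DESeq2 1.42.0, no filter, loci of 1 gene, limma 3.58.1 on log2(FPKM + 1) or log2(FPKM + 0.1), and leaving out each library. Start sites were searched within 1000 bases.

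Members and lists were chosen with earlier results of these data known. Genes named were, per family, the 2 largest called rises and falls and the highest FPKM in WT of batch 1, every gene of families of 3 or fewer, the 6 smallest p-values of the batch difference, the 6 highest m6A folds, and the 3 largest rises and falls of each other list. Hnrnph1, Hnrnph2, Hnrnpf, Hnrnpc, Hnrnpr, U2af1, Sf3b1, Rbm10, Tra2a, the progenitor markers, the other SMN complex genes and the genes in short lists were chosen after their values were seen. Table columns are not tied to line numbers, and whether the lines came from separate embryos is not given for each, so p-values measure the spread between libraries. Batch 2 was not analysed here, since its table equals that of batch 1.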

Additional observations from a re-analysis of the deposited data

Results flagged for a closer look

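The KO effect differed between batch 1 and batch 3 for 16 of the genes named, by the interaction term of the edgeR fit (adjusted p below 0.05); values are log2 fold changes in batch 1 minus batch 3. The difference was negative for Rbm24 (-0.87), Snrpd1 (-0.77), Srsf2 (-0.77), Srsf3 (-0.75), Rbm19 (-0.72), Snrpe (-0.65), Hnrnpab (-0.58), Rbm3 (-0.53) and U2af2 (-0.44). It was positive for Luc7l2 (0.65), Luc7l (0.59), Sfpq (0.56), Rbm33 (0.54), Rbm14 and Rbm4 (0.53 for the locus they share) and Rbm48 (0.51). With limma on FPKM only 1 member difference was called positive, so at most 1 of these positive loci kept its call. Those of Luc7l, Luc7l2 and the Rbm14 and Rbm4 locus were not called. Rbm48 averaged 6.3 FPKM in KO and 4.85 FPKM in WT cells of batch 1, and 6.82 and 6.11 FPKM in batch 3. In CPM, Luc7l2 and Sfpq were higher in every KO than in every WT library of batch 1 and lower in every KO than in every WT library of batch 3. In FPKM both genes overlapped between KO and WT in batch 1. The 2 KO libraries of batch 3 stood apart for Srsf2 (294 and 432 CPM) and Snrpe (90.6 and 132 CPM). The sequencing round and the set of lines cannot be told apart.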

How the results depend on the processing

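The count of splicing factor loci called over batches, 80, was 81 with RLE scaling, 81 with DESeq2, 79 without a filter, 71 over loci of 1 gene and 79 with limma, and 75 to 86 when a library was left out. In batch 1 the range when a library was left out was 83 to 89, in batch 3 it was 5 to 58, for the difference between batches 6 to 53 and for Het 0 to 0. The batch 3 count, 27, was 6 with limma on log2(FPKM + 1) and 8 on log2(FPKM + 0.1). For m6A the count of 40 genes was 85 in at least 1 list and 4 with a −log10 q of at least 5, and for H3K27me3 the count of 3 was 1 at that q. The shares of all genes at these settings were not counted. Signs reversed with limma, at both pseudocounts, for Rbm48 over batches (0.24 and 0.28), Sfpq over batches (-0.23 and -0.23) and in batch 1 (-0.17 and -0.17), and Rbm14 and Rbm4 in batch 1 (-0.20 and -0.20); the cause was not tested. Of the values of single named genes, 38 lost and 10 gained a call under alternatives other than leaving out a library and 649 did neither; when a library was left out the counts were 38, 19 and 763. A further 35 sign changes lay between values not called on either side. No paired analysis was possible because the labels give the RNA libraries of the groups no shared replicate numbers.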
